A study of Mus musculus with 48 samples.

Results

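Salt transport genes of the thick ascending limb and the distal convoluted tubule were followed in mouse kidney: Slc12a1, Umod, Slc12a3, Kcnj1, Bsnd, Cldn16, Egf, Wnk1 and Stk39. They were taken as every probe set annotated to these 9 symbols among the 45137 probe sets that are not array controls, which gave 17 probe sets for 9 of 18194 named genes. The kidneys came from Hyp mice, in which the gene Phex on the X chromosome is mutated, and from their normal littermates, fed a low or a control phosphorus diet for 3 days at 10 weeks of age. Hyp males are hemizygous and Hyp females heterozygous, and 1 label names the C57BL/6J strain. The 8 groups were Hyp and normal males on the low diet, Hyp and normal males on the control diet, and the same 4 groups of females. Each group had 3 RNA pools of 3 mice each, so 72 mice gave 24 pools, and each pool was hybridized to the 430A and the 430B array. Pools of whole kidney were measured, so fewer cells of a type and less RNA per cell cannot be told apart, and pooling averages over single mice.

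The thick ascending limb takes up sodium, potassium and chloride from the urine through the cotransporter encoded by Slc12a1, the target of loop diuretics. Kcnj1 encodes the potassium channel that returns potassium to the lumen. Bsnd encodes a subunit needed by the channels through which chloride leaves the cell on the blood side. Umod encodes uromodulin, the most abundant protein of normal urine, and Cldn16 a tight junction protein through which magnesium and calcium pass. The distal convoluted tubule follows the thick limb and takes up sodium and chloride through the thiazide-sensitive cotransporter encoded by Slc12a3; Egf, a growth factor precursor, is made in both segments, and the kinases encoded by Wnk1 and Stk39 act in a chain that phosphorylates both cotransporters.

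The sequences around the transcription start of the 3 contrasted genes are shown because Slc12a3 is set against Slc12a1 and Umod throughout. They run from 250 bases before to 50 bases after 1 annotated start of each gene in RefSeq, build GRCm38.p6. The windows lie at chr8:94328958-94329257 on the plus strand for Slc12a3, chr2:125152350-125152649 on the plus strand for Slc12a1 and chr7:119479213-119479512 on the minus strand for Umod. The annotated Slc12a3 and Slc12a1 genes begin inside these windows, at 94329109 and 125152510, so the starts used are not their outermost ones. Capitals mark matches on either strand to AGGTCA, the core motif of many nuclear receptors, GTTAAT, part of the motif of the kidney factor HNF1, or AGAACA, the core motif of steroid hormone receptors.
Slc12a3: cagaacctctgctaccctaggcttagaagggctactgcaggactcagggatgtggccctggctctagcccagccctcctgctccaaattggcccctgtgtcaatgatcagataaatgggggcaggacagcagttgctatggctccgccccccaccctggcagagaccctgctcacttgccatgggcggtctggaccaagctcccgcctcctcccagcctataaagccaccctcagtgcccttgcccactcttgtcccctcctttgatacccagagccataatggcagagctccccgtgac
Slc12a1: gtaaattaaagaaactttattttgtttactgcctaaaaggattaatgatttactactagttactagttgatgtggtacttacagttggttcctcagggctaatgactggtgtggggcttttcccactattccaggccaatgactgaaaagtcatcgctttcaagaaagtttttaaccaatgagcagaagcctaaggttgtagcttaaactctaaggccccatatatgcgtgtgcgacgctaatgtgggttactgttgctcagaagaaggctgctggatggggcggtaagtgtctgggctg
Umod: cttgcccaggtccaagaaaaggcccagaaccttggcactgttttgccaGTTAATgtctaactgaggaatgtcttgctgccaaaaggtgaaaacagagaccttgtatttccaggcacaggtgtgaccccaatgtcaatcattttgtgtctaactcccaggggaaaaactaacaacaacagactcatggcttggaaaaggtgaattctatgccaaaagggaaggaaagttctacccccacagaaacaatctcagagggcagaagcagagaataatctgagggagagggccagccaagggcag
The Umod window held 1 GTTAAT match, which started at position -202 from the start site, and the Slc12a3 and Slc12a1 windows held no match to any of the 3 motifs. Windows were given for 8 of the 9 genes. AGAACA matched in those of Kcnj1 and Cldn16 and in no other member window, and 19.0% of 32851 windows of 300 bases held it. AGGTCA was in 16.3% and GTTAAT in 7.1% of those windows. A match is a run of letters and not a measured binding site.

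Of the 17 probe sets, 14 exceeded the array median on 3 or more of the 24 arrays and were tested, and each of the 9 genes had at least 1 of them. The 3 left out were a second probe set of Slc12a1, at signals of 19.9 to 112.7, one of Slc12a3 on the 430B array, at 3.9 to 16.1, and one of Stk39, at 10.5 to 88.0. None of the 3 was above the median on any array. A signal is the intensity value that GCOS 1.2 computed for a probe set, called scanner units in the figures, and not a raw scan reading. Levels of different genes cannot be compared. The defining genes of both segments were bright on every array: the leading Umod probe set read 18730.4 to 24712.4, that of Slc12a1 6476.2 to 12107.0 and that of Slc12a3 3872.1 to 8067.0. The highest signals of any probe set on the 430A arrays were 30302.6 to 47504.4. Whether signals as bright as that of Umod were compressed was not tested. Median array signals were 164.6 to 211.1 on the 430A array, the sex labels matched Xist and Eif2s3y on all 24 of these arrays, and Phex itself, with a highest signal of 49.8, was too dim to check the genotype.

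Slc12a3 rose in Hyp kidneys. Its signal was 7047.9, 5856.7 and 6621.2 in Hyp males on the low diet, against 3987.0, 4390.6 and 4327.3 in normal males on that diet. On the control diet it was 6753.6, 7103.5 and 7139.7 in Hyp males, against 4345.6, 3872.1 and 4434.6 in normal males. Every Hyp male pool was thus above every normal male pool. In females on the low diet it was 6756.1, 6770.8 and 7206.0 in Hyp kidneys, against 5458.4, 6069.7 and 5807.7 in normal kidneys. On the control diet it was 7357.3, 7602.5 and 8067.0 in Hyp females, against 5677.5, 5647.1 and 6497.1 in normal females. Hyp pools were above normal pools within each sex without overlap, as were 0.107% of the 28044 tested probe sets, but over all 24 pools the groups overlapped, since Hyp males on the low diet reached down to 5856.7 and normal females up to 6497.1.

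The difference of Slc12a3 between Hyp and normal kidneys was 0.50 ± 0.05 on the log2 scale (SE, 12 pools against 12), or 40.9% (limma, adjusted p = 2.54e-06, Benjamini-Hochberg over all tested probe sets). It was 0.67 ± 0.07 in males (adjusted p = 6.95e-06) and 0.32 ± 0.07 in females (adjusted p = 0.0391). In those strata 0.635% and 0.228% of tested probe sets were called higher in Hyp. It was 0.44 ± 0.07 on the low diet (adjusted p = 0.00181) and 0.55 ± 0.07 on the control diet (adjusted p = 0.000175), where 0.399% and 0.321% were called higher. The difference between the sexes in this effect was 0.36 ± 0.10, with an unadjusted p of 0.00149 and an adjusted p of 0.439 in the limma fit, so it did not pass. Within the 3 numbered series of pools the genotype difference was 0.53, 0.47 and 0.48.

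**Figure D1:**
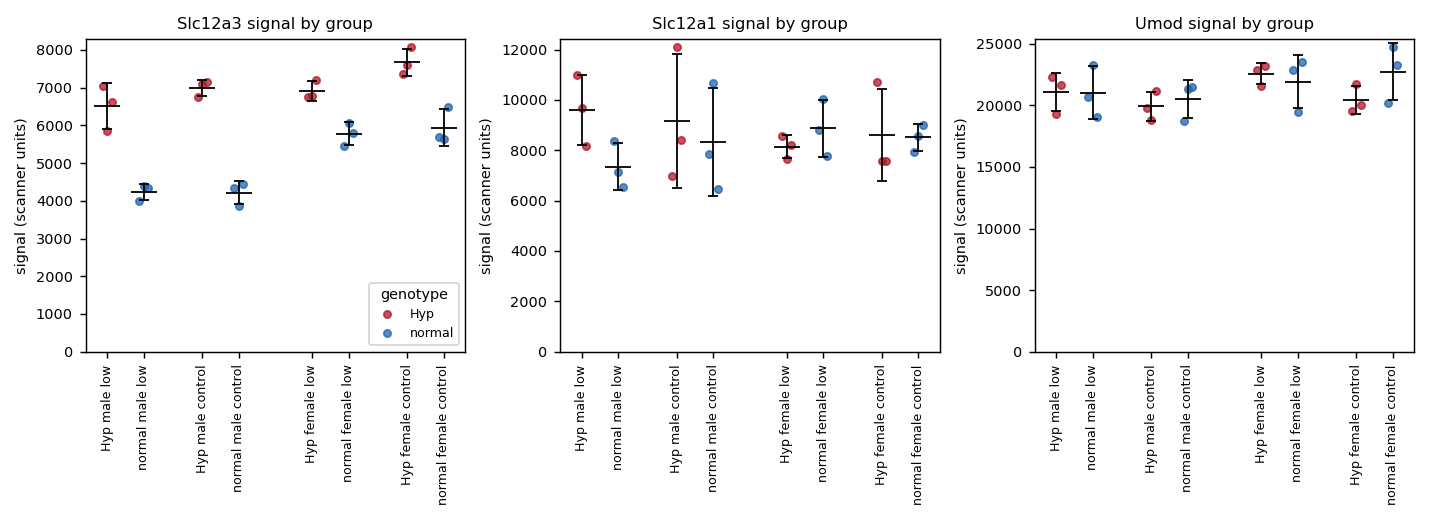
Signal in scanner units of the leading probe sets of Slc12a3, Slc12a1 and Umod in each pool of the 8 groups, with the mean and SD of 3 pools; Hyp is red and normal is blue. Slc12a3 in Hyp males lies above all normal male pools, from 5856.7 against at most 4434.6, while Slc12a1 and Umod overlap between genotypes.

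By mean signal the 8 groups ran in the order Hyp females on the control diet (7676 ± 360, SD, n = 3), Hyp males on the control diet (6999 ± 213), Hyp females on the low diet (6911 ± 256), Hyp males on the low diet (6509 ± 604), normal females on the control diet (5941 ± 482), normal females on the low diet (5779 ± 307), normal males on the low diet (4235 ± 217) and normal males on the control diet (4217 ± 302). The pools of Hyp males on either diet and of Hyp females on the low diet overlapped, as did those of both normal female groups and those of both normal male groups. Hyp females on the control diet lay above all other pools, and normal females lay above normal males without overlap. The share of all tested probe sets with either separation was not counted.

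Slc12a1 and Umod did not pass the test between genotypes. Slc12a1 read 6969.6 to 12107.0 with a median of 8297.9 in Hyp pools, against 6476.2 to 10681.8 with a median of 8155.8 in normal pools, and the groups overlapped over nearly their whole range. Its difference was 0.10 ± 0.10 on the log2 scale, with a 95% interval of -0.11 to 0.31 (limma, adjusted p = 0.839). Umod read 18828.9 to 23231.5 with a median of 21398.1 in Hyp pools, against 18730.4 to 24712.4 with a median of 21415.4 in normal pools. Its difference was -0.04 ± 0.06, with an interval of -0.15 to 0.08 (limma, adjusted p = 0.913), and its other probe set gave 0.05 ± 0.05. The intervals of Slc12a1 and Umod both end below the 0.39 at which that of Slc12a3 begins.

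Slc12a3 was then set against the 2 thick limb genes directly, as single genes and not as whole segments, by the log2 ratio of Slc12a3 to each thick limb gene within a pool, with an exact permutation test of the Hyp and normal labels within each diet and sex (two-sided, 160000 arrangements) and adjustment over 9 tests, 3 ratios by 3 factors. Ratios of different probe sets have no meaning as levels, and only their differences between groups are read. Slc12a3 over Umod was -1.76 to -1.31 with a median of -1.62 in Hyp pools, against -2.46 to -1.68 with a median of -2.12 in normal pools. The groups overlapped only at their edges, and males did not overlap at all, from -1.72 in Hyp males against at most -2.11 in normal males. The difference was 0.53 ± 0.06 (SE, exact p = 3.75e-05, adjusted p = 0.000337). Slc12a3 over Slc12a1 was -0.77 to 0.09 with a median of -0.27 in Hyp pools, against -1.46 to -0.42 with a median of -0.65 in normal pools. Its difference was 0.40 ± 0.11 (exact p = 0.00154, adjusted p = 0.00692). Slc12a1 over Umod, both thick limb genes, differed by 0.13 ± 0.12 between Hyp and normal pools (exact p = 0.27, adjusted p = 0.404).

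**Figure D2:**
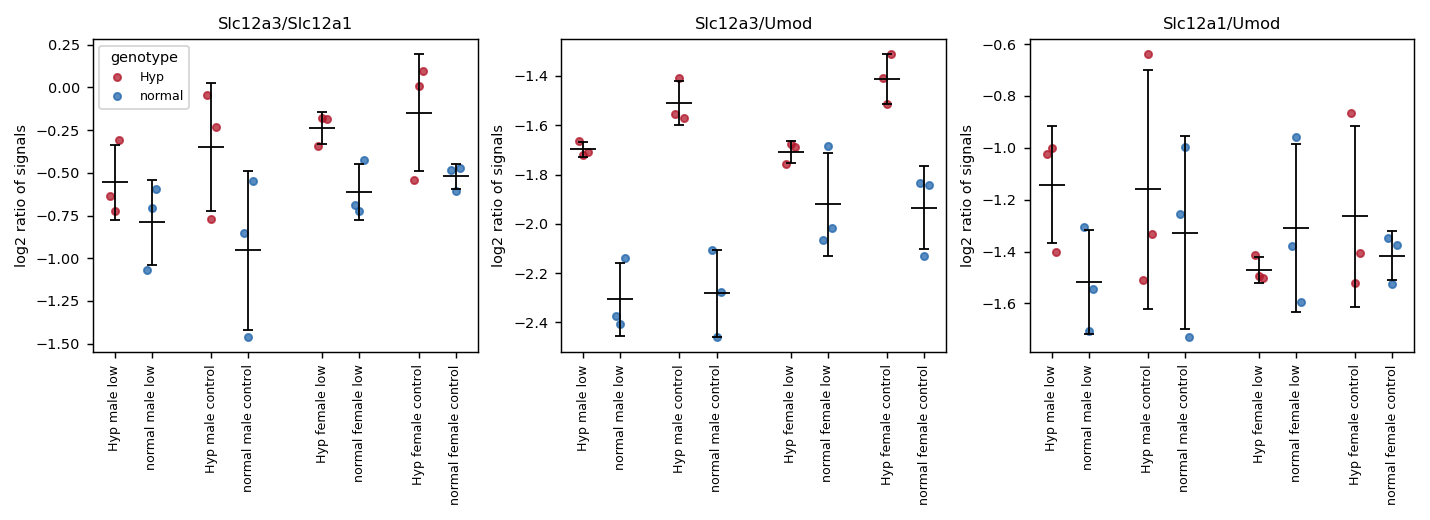
Log2 ratio of signals in each pool for Slc12a3 over Slc12a1, Slc12a3 over Umod and Slc12a1 over Umod in the 8 groups, with the mean and SD of 3 pools. In the middle plot Hyp males are at or above -1.72 and normal males at or below -2.11.

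Kcnj1, which serves both the thick limb and the segments after it, was higher in Hyp kidneys with less certainty. Its leading probe set read 2677.8 to 3839.5 with a median of 3364 in Hyp pools, against 2170.7 to 3685.8 with a median of 2747 in normal pools, and the groups overlapped. The difference was 0.24 ± 0.06 (limma, adjusted p = 0.0524) and did not pass, although it passed in 6 of 9 alternative settings (adjusted p from 0.0176 to 0.114 over all 9) and without normal males control 2 or normal females low 3. The other probe set gave 0.26 ± 0.06 and passed (limma, adjusted p = 0.0378), and the 2 probe sets ran together over the 24 pools with a Pearson r of 0.88, as a description. That call was lost on leaving out any of 17 of the 24 pools, with adjusted p up to 0.0777, and held without Hyp males low 3, Hyp males control 1, normal males low 1 or 2, normal females low 1 or 3, or normal females control 2.

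The other members did not pass between genotypes. Stk39, the kinase known as SPAK, had the widest values: its leading probe set differed by 0.49 ± 0.16 (limma, adjusted p = 0.172) and its other tested probe set by 0.30 ± 0.11 (adjusted p = 0.264). Both are dim, at 123.8 to 393.4 and 103.7 to 235.2. The leading one passed without normal females control 3 (adjusted p = 0.0463) and the other without normal females low 3 (adjusted p = 0.0425). Bsnd differed by -0.02 ± 0.09, Cldn16 by -0.06 ± 0.08, Egf by -0.04 ± 0.05 and the leading Wnk1 probe set by 0.03 ± 0.06. The other Wnk1 probe sets gave -0.17 ± 0.11 and 0.24 ± 0.12, of opposite sign, and neither passed. In all, 2 of 14 member probe sets passed between genotypes, both higher in Hyp, where 1.63% of all tested probe sets passed and 0.856% were higher.

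**Figure D3:**
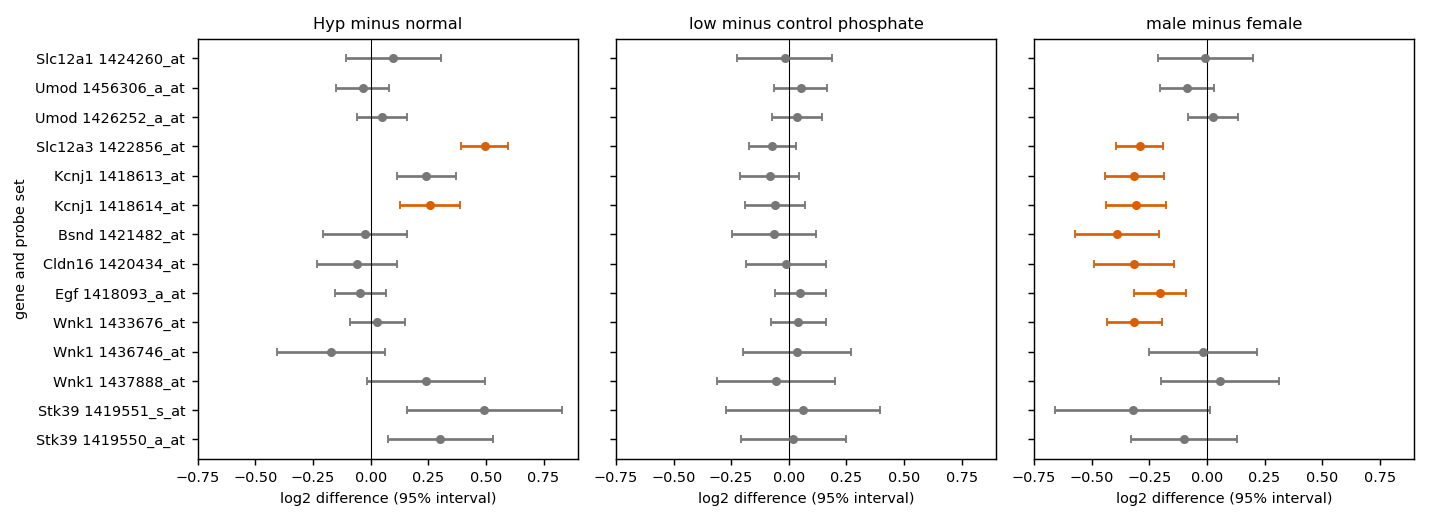
Log2 differences with 95% intervals of the 14 tested member probe sets for Hyp minus normal, low minus control diet and male minus female; orange marks an adjusted p under 0.05. Slc12a3 at 0.50 and 1 Kcnj1 probe set at 0.26 are orange for genotype, none for diet, and 7 for sex.

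Other genes of the 2 segments passed between genotypes in both directions. Of 14 further thick limb genes 11 were measured, and 1 rose in Hyp kidneys: Ptger3, a prostaglandin E2 receptor (0.42 ± 0.08, limma, adjusted p = 0.00778). Of 13 further genes of the distal convoluted tubule 10 were measured, and 2 fell: Pvalb, the calcium buffer parvalbumin (-0.31 ± 0.07, limma, adjusted p = 0.0276), and Calb1, the calcium buffer calbindin of the distal tubule (-0.33 ± 0.08, limma, adjusted p = 0.0242). The magnesium channel gene Trpm6 differed by 0.05 ± 0.12 and did not pass. None of 8 measured genes of the kinase chain passed by limma, Wnk4 among them at 0.06 ± 0.10, nor any of 8 genes of sodium uptake in the collecting duct, nor either measured gene of the sodium pump, Atp1b1 and Fxyd2. The median difference was 0.11 over the thick limb list, -0.04 over the distal list and 0.05 over the kinase list, beside -0.01 over all 12838 named genes, of which 2.21% passed.

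Markers of other cells also moved with genotype. Of 6 intercalated cell markers 3 rose in Hyp kidneys, Slc4a1, Slc26a4 and Atp6v0d2, and the summed signal of the list was 4230.8 to 5942.4 in Hyp pools, against 3035.2 to 5110.2 in normal pools. Of 8 proximal tubule markers 3 fell, Slc34a1, Slc5a2 and Slc22a6, and 5 did not pass. Summed signals of these 8 were 37104.4 to 61491.8 in Hyp pools, against 46630.2 to 63328.5 in normal pools. Their log2 differences lay between -0.64 and 0.46 with a median of -0.11, so they did not all go 1 way. A fall of a marker gene itself cannot be told apart from fewer cells. Of 3 genes listed as thin limb markers only Cldn4 passed, higher in Hyp (0.43 ± 0.09), and the lowest difference on that list was -0.14. Of 6 injury markers Clu rose (0.30 ± 0.06). No measured marker of principal cells, podocytes, endothelium, fibroblasts and pericytes, leukocytes, adrenal, fat or macula densa passed by limma. The ratio of 3' to 5' actin signal is a measure of RNA integrity. On the 430A array its median was 1.31 in Hyp pools, against 1.41 in normal pools. The same ratio of Gapdh went the other way, with a median of 0.740 in Hyp pools, against 0.719 in normal pools. The part of these in the Slc12a3 difference was not tested.

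**Figure D4:**
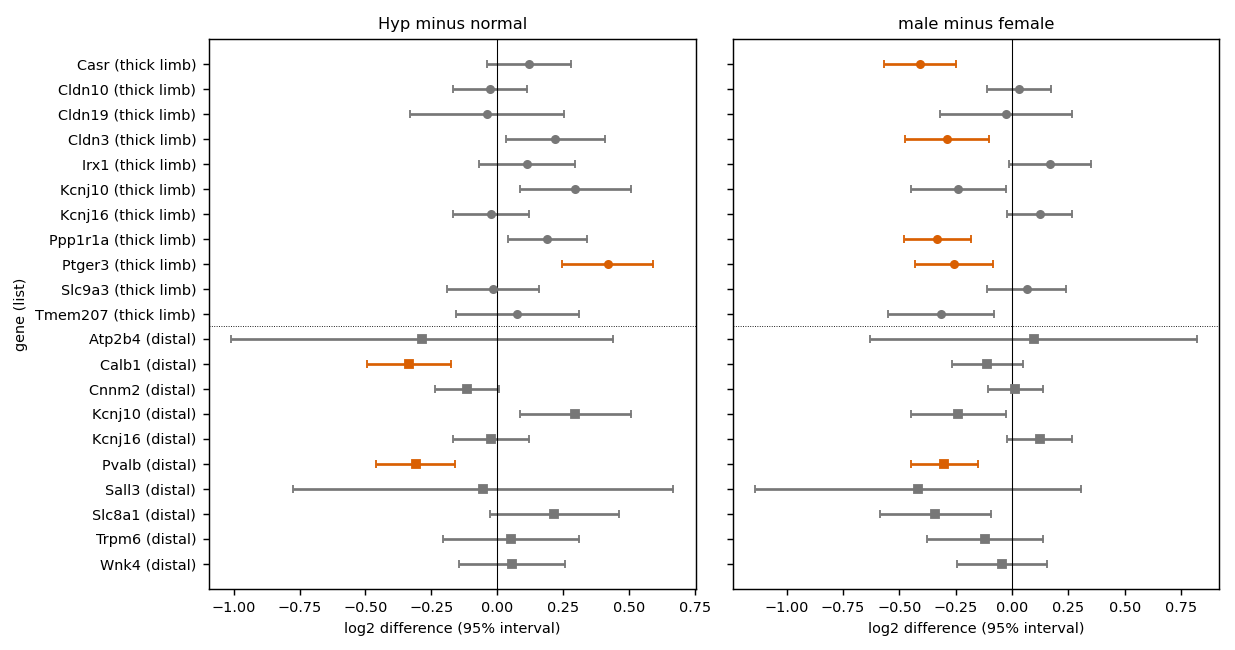
Log2 differences with 95% intervals for the measured genes of the thick limb list (circles) and the distal convoluted tubule list (squares), Hyp minus normal and male minus female; orange marks an adjusted p under 0.05. Ptger3 lies at 0.42 and Calb1 at -0.33 between genotypes, on opposite sides of 0.

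No member passed the test between diets. Slc12a3 read 3987.0 to 7206.0 with a median of 5963 on the low diet, against 3872.1 to 8067.0 with a median of 6625 on the control diet, and its difference was -0.07 ± 0.05 (limma, adjusted p = 0.729). Slc12a1 differed by -0.02 ± 0.10 and Umod by 0.05 ± 0.06. Over the 14 probe sets the differences lay between -0.08 and 0.06, and none passed by limma, where 0.663% of all tested probe sets did; no member had an unadjusted p below 0.153. In contrast Calb1, of the distal list, fell on the low diet by 0.77 on the log2 scale (limma, adjusted p = 5.78e-06). The ratio of Slc12a3 to Umod differed by -0.12 ± 0.06 between low and control diet (exact p = 0.0485, adjusted p = 0.0873) and passed without normal females control 2 or low 2, or normal males control 2 or low 3 (adjusted p = 0.0222 to 0.0436). None of the interactions of genotype, diet and sex passed by limma for any of the 14 probe sets. Over all tested probe sets 0.0143% passed for genotype by diet, 0.0499% for genotype by sex, and 0% both for diet by sex and for the term of all 3 factors; the lowest unadjusted p among the members was the 0.00149 of Slc12a3.

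Sex moved more members than genotype or diet, with 7 of 14 probe sets lower in males, where 14.6% of all tested probe sets passed and 8.67% were lower. Bsnd read 243.0 to 397.6 with a median of 313 in males, against 320.1 to 524.5 with a median of 392 in females, a difference of -0.39 ± 0.09 (limma, adjusted p = 0.00365). Cldn16 read 274.3 to 492.8 in males, against 365.8 to 565.6 in females, a difference of -0.32 ± 0.08 (limma, adjusted p = 0.0121). Both genes overlapped between the sexes. Kcnj1 read 2170.7 to 3292.5 in males, against 2538.2 to 3839.5 in females, and its probe sets differed by -0.32 and -0.31 (limma, adjusted p = 0.00114 and 0.00149). Egf read 12930.8 to 16471.3 in males, against 14440.2 to 18746.7 in females (-0.20 ± 0.05, limma, adjusted p = 0.0123). The leading Wnk1 probe set read 3812.0 to 4891.5 in males, against 4661.2 to 6278.1 in females (-0.31 ± 0.06, limma, adjusted p = 0.000526), and the sexes overlapped. The other Wnk1 probe sets gave -0.02 ± 0.11 and 0.06 ± 0.12.

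**Figure D5:**
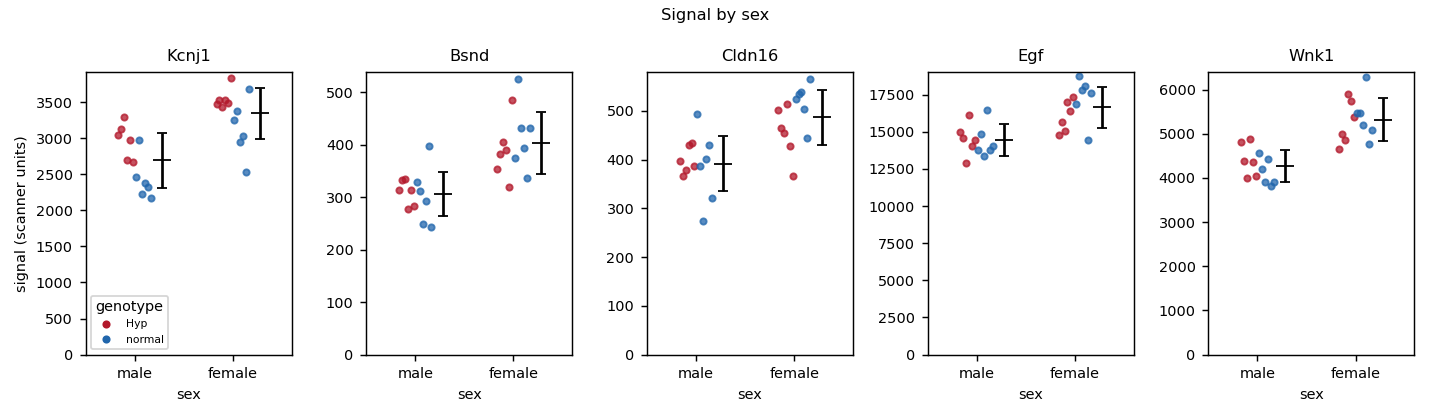
Signal in scanner units of the leading probe sets of Kcnj1, Bsnd, Cldn16, Egf and Wnk1 in 12 male and 12 female pools, coloured by genotype, with the mean and SD of 12 pools. Male pools lie lower in each plot, with overlap, as in Wnk1 at 3812.0 to 4891.5 in males against 4661.2 to 6278.1 in females.

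Slc12a3 was also lower in males, by -0.29 ± 0.05 (limma, adjusted p = 0.000237). The difference was -0.11 ± 0.07 among Hyp kidneys (adjusted p = 0.429) and -0.47 ± 0.07 among normal kidneys (limma, adjusted p = 8.52e-05), where male pools at 3872.1 to 4434.6 lay below all female pools at 5458.4 to 6497.1. Of all tested probe sets 2.65% were called lower in males among Hyp kidneys and 5.1% among normal kidneys. The share with no overlap of the sexes among normal kidneys was not counted. The test of the difference between these 2 values is the genotype by sex term above, which did not pass. Slc12a1 differed by -0.01 ± 0.10 between the sexes, with an interval of -0.21 to 0.20, and Umod by -0.09 ± 0.06, with an interval of -0.20 to 0.03. Slc12a3 over Umod was lower in males by -0.21 ± 0.06 (exact p = 0.00295, adjusted p = 0.00885) and Slc12a3 over Slc12a1 by -0.28 ± 0.11 (exact p = 0.015, adjusted p = 0.0337). The ratio to Slc12a1 lost its call on leaving out any of 8 pools: Hyp females control 2 or 3, Hyp males control 2 or low 2, normal females control 1 or 3 or low 3, and normal males low 1, with adjusted p up to 0.091.

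Some of these sex calls depended on how arrays were scaled. Median signals on the 430A array were 179.3 in males, against 195.5 in females (medians of 12 arrays). With each array scaled to a common median, 4 of the 14 passed, Bsnd, the leading Wnk1 probe set and both of Kcnj1, while Slc12a3 (-0.19, adjusted p = 0.0617), Cldn16 (-0.22, adjusted p = 0.0854) and Egf (-0.11, adjusted p = 0.24) did not (limma), and Umod moved to 0.01. Of 28044 tested probe sets 4108 passed for sex as deposited and 3795 with that scaling. The share of all called probe sets that were higher in males was 40.8% as deposited and 66.6% with that scaling.

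Some genes of the lists differed between the sexes too. These calls and those of the cell markers below used the signals as deposited. Whether they hold with arrays scaled to a common median was not tested. Of the 11 thick limb genes 4 fell, Casr, the calcium-sensing receptor (-0.41 ± 0.08), Ppp1r1a (-0.33 ± 0.07), Cldn3 (-0.29 ± 0.09) and Ptger3 (-0.26 ± 0.08), and of the 10 distal genes 1 fell, Pvalb (-0.30 ± 0.07). In the kinase list Sgk1, a kinase induced by aldosterone, fell by 1.07 on the log2 scale, Ppp1r1a fell as above and Cul3, a ubiquitin ligase scaffold, rose by 0.30. Of 8 genes of collecting duct sodium uptake 6 fell, among them the channel subunit genes Scnn1a, Scnn1b and Scnn1g and the receptor gene Nr3c2. Among all named genes 11.1% fell. Among markers of other cells, 3 of 3 podocyte, 3 of 5 endothelium, 2 of 5 fibroblast and pericyte, 3 of 5 leukocyte, 2 of 2 fat, 2 of 5 principal cell, 3 of 6 intercalated cell and 1 of 3 thin limb markers were lower in males. Of 8 proximal tubule markers 3 were higher and 3 lower, with sums of 53422.7 to 63328.5 in males, against 37104.4 to 54415.1 in females, and of 6 injury markers 1 was higher and 2 lower. No adrenal or macula densa marker passed by limma. The summed endothelium markers were 2325.9 to 3175.9 in males, against 3166.6 to 3702.2 in females. The actin ratio on the 430A array had a median of 1.39 in males, against 1.31 in females. The Gapdh ratio on that array went the other way, with a median of 0.727 in males, against 0.740 in females. The part of these in the sex differences of the members was not tested.

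The genes whose log2 signal ran most like that of Slc12a3 over the 24 pools, out of 7761 on the 430A array, were Col5a2 (Pearson r = 0.881), Dusp6 (0.879), S100a10 (0.874), Cd9 (0.871) and Hoxb6 (0.864), all of which were higher in Hyp and lower in males. Those most like Slc12a1 were Hcfc1r1 (0.808), Nsa2 (0.787), Dek (0.779), Tnfaip1 (0.776) and Tmed9 (0.76), and those most like Umod were Eef1a1 (0.754), Itm2b (0.706), Olfr15 (0.688), Jam3 (0.685) and Ppib (0.684), none of which passed for genotype or sex. The 24 points share the group structure, which enters these values. Among the members, by leading probe sets only, Slc12a1 and Umod had an r of -0.127 with each other, while Slc12a3 and Kcnj1 had 0.699 and Egf and Wnk1 0.845. Probe sets of 1 gene did not always run together, with an r of 0.134 for both of Umod and 0.484 for both of Stk39. For the 3 of Wnk1 it was 0.42, 0.0218 and -0.199, so the 0.845 holds for its leading probe set.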

How the data were processed

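Whole-kidney RNA pools were measured on Affymetrix MOE 430A and 430B arrays. The deposited values are intensity signals per probe set made by the authors with GCOS 1.2, per the submitters' processing notes, from RNA extracted with TRIzol, per the labels' protocols; their scaling is not given in the sources used here. Signals were floored at 1 and taken to log2. Each chip was fitted with limma 3.58.1 (R 4.3.3) with 1 mean per group, over probe sets above the array median on at least 3 of 24 arrays, and p-values were adjusted over the 28044 kept probe sets of both chips at a threshold of 0.05. For each gene the probe set of highest mean log2 signal leads. Ratios of leading probe sets were tested by exact permutation within strata. Scripts were tested on simulated data. Of 45137 probe sets, 35041 have 1 symbol, 936 several and 9160 none; those without exactly 1 symbol were not named. All member probe sets are named, list genes past the threshold by up to 4 smallest adjusted p per contrast, and the 5 most alike genes by Pearson r. Members, lists and rules were chosen with earlier results of these data known. No chip gives a scan date here, so batches were not tested beyond the series number. The labels do not say whether pools share litters or days, and p-values set a difference against the spread between pools. The number of pools limits the precision.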

Additional observations from a re-analysis of the deposited data

How the results depend on the processing

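Settings tried were a pseudocount of 50, no filter, a stricter filter (12 arrays), 1 probe set a gene, median scaling, quantile normalization, adjustment within each chip, the series number as a replicate block, trend and robust moderation, and each of the 24 pools left out; the ratios had a pseudocount of 50, quantile normalization, the other Umod probe set, the block and each pool left out. The count of member probe sets called between genotypes was 2, and 1 with no filter, where more probe sets are tested. It was 3 with the pseudocount, the stricter filter, quantile normalization, adjustment within each chip or trend and robust moderation. It was 1 to 4 without single pools. Calls over all probe sets moved too, from 456 of 28044 in the main fit to 338 of 45137 with no filter. They were 488 of 22591 with the stricter filter. Of 28044, they were 514 with the pseudocount, 503 with quantile normalization, 523 with adjustment within each chip and 633 with trend and robust moderation. Without single pools they were 380 to 484. The count for sex was 7, and 4 with median scaling. Without any single pool it was 7. Of 28044 tested probe sets, 4108 passed for sex in the main fit, 3795 with median scaling and 3574 to 4166 without single pools. The diet and interaction counts were 0 in every fit. Over all tested probe sets the diet calls ranged from 120 of 45137 with no filter to 282 of 28044 with trend and robust moderation. Over all fits 3 to 11 passed for genotype by diet, 12 to 31 for genotype by sex and 0 to 1 for diet by sex. None passed for the term of all 3 factors. Slc12a3 between genotypes was 0.48 to 0.51 without single pools, and its highest adjusted p over all settings was 9.3e-05. Slc12a3 over Slc12a1 between the sexes was -0.33 to -0.22 without single pools, and Slc12a3 over Umod between the diets -0.15 to -0.10; the other 7 ratio results kept their side of the threshold in every setting. Of 1563 values of single probe sets under alternatives, 0 turned direction where either fit passed, 21 lost and 10 gained a call, and 70 changed sign without passing in either fit; the cause was not tested. Pairing by series number asked for r over 0.1 in every pair, too strict to decide, and main fits had no block. Same-numbered pools deviated together with r of -0.16 to 0.256 on the 430A array, over 0.1 in 32 of 84 pairs. On the 430B array r was -0.04 to 0.07, over 0.1 in 0 of 84. Yet 15 of 24 and 22 of 24 pools lay closest to their own number, so pools of 1 series shared variation, of untested source. With the replicate block Slc12a3 between genotypes had an adjusted p of 2.52e-06 by limma. The ratios, which with the block were tested in a linear model and not by permutation, kept their side of the threshold. The counts of member calls were 2, 0 and 7 for genotype, diet and sex. Over all 28044 tested probe sets they were 549, 255 and 4553.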
